A study of Mus musculus with 2 samples.

Results

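The 3 genes of the NR4A family of orphan nuclear receptors (Nr4a1, Nr4a2, Nr4a3) and 7 immediate early genes (Fos, Fosb, Jun, Junb, Egr1, Crem, Ier2) were followed in single nuclei of interscapular brown adipose tissue (BAT). They were chosen by symbol, and each of the 10 was found once among 32285 genes in the gene lists of both libraries. The 2 libraries came from 8-week-old male mice that all carried floxed Srsf1 alleles (Srsf1 flox/flox). WT littermates had no Cre, and KO mice (labelled SRSF1_KO) also carried Adipoq-Cre, in which the adiponectin promoter drives the recombinase in mature adipocytes. SRSF1 is a serine/arginine-rich splicing factor. Each genotype was 1 library, and how many mice it pooled is not given in the sources used here, so the libraries were compared without a test. The genotype, the mice and the preparation of each library cannot be told apart.

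Immediate early genes are transcribed within minutes of a stimulus and need no new protein for it. In brown adipocytes noradrenaline acts through β-adrenergic receptors, cAMP and protein kinase A on the factor CREB, which binds cAMP response elements (CREs), and the Nr4a genes are classical cAMP-induced genes of this tissue. NR4A proteins bind DNA as monomers or dimers without a known natural ligand, FOS and JUN proteins pair into the AP-1 factor, EGR1 is a zinc-finger factor, and CREM is a CREB relative whose short forms repress cAMP-driven genes. These transcripts also respond to tissue handling.

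The bases before the starts of 5 members are shown because the 3 Nr4a genes, which had the largest differences in adipocyte nuclei, can be set beside Fos and Junb, which had small ones. Of the 10 members, 7 had an entry among the RefSeq promoters (GRCm38.p6). Capitals mark the CRE core (TGACG, on either strand) and the EGR site (GCGNGGGCG, on either strand). The window held 250 bases before each start. For Nr4a3 it was ended where the first exon of the gene model begins, which left 98 bases, at chr4:48045055-48045152 on the plus strand. The others were chr15:101266596-101266845 (plus, Nr4a1), chr2:57124004-57124253 (minus, Nr4a2), chr12:85473640-85473889 (plus, Fos) and chr8:84978749-84978998 (minus, Junb).
Nr4a1: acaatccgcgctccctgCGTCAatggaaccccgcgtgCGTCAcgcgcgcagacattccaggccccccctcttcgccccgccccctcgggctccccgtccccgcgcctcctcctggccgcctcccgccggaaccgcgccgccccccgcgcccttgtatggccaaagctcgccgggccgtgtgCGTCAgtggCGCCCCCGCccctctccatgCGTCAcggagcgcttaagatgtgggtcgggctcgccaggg
Nr4a2: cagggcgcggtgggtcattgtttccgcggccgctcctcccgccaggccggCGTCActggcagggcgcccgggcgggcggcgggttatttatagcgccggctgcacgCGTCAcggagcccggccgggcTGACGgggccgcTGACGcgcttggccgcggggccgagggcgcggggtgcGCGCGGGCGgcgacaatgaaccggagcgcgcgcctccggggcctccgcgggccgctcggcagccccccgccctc
Nr4a3: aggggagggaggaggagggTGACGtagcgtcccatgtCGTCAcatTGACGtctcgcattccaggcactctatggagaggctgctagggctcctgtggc
Fos: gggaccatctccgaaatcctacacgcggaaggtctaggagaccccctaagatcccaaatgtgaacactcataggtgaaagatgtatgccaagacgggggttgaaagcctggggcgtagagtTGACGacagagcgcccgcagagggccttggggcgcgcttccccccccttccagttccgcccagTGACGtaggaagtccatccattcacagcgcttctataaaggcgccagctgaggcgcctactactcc
Junb: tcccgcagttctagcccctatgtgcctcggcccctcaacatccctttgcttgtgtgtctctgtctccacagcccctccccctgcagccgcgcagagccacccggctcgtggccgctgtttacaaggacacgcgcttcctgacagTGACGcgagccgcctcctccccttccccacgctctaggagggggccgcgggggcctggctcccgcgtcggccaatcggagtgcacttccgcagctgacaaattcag

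Each of the 3 Nr4a windows of 250 bases held 4 CRE cores, of which 3 fall in the bases shown for Nr4a3. Fos held 2, Fosb and Junb held 1 each, and Jun, which was 2.59-fold lower in KO adipocyte nuclei, held 0. A CRE core was present in 17.8% of 32851 such windows, and 4 or more were present in 0.137% of them (45 windows), a number set after the Nr4a windows had been seen. These windows were not matched for GC content, which was 74.4% in Nr4a1, 80.0% in Nr4a2, 63.6% in Nr4a3, 58.4% in Fos and 66.4% in Junb. An EGR site was found once each in Nr4a1, Nr4a2 and Fosb, and in 4.7% of all windows. The full CRE (TGACGTCA, which contains the core on both strands, in 1.55% of windows), the AP-1 site (TGANTCA, 6.75%), the NR4A monomer site NBRE (AAAGGTCA, 1.34%) and the CArG box bound by SRF (1.47%) were in none of the 7 windows. These are matches of letters, and say nothing of binding. The windows shown were picked by the ratios of their genes, and a link between matches and levels was not tested.

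In the annotation (GENCODE vM21, GRCm38), Nr4a1 spans chr15:101254269-101274795, Nr4a2 chr2:57106830-57124003 and Nr4a3 chr4:48045153-48086447. Fos spans chr12:85473890-85477273, Fosb chr7:19302696-19310051, Jun chr4:95049034-95052222, Junb chr8:84974484-84978718 and Ier2 chr8:84661331-84662852. The RefSeq start of Nr4a1 lies inside its gene model, whose longer transcripts begin upstream. Exons cover 14.5% of Nr4a3, 17.1% of Nr4a1, 23.6% of Nr4a2 and 8.22% of Crem, but 69.5% of Fos, 86.9% of Egr1 and 100% of Jun and Ier2. Whether intronic reads were counted is not given in the sources used here, so levels are compared within a gene and never between genes. Junos lies opposite Jun, Prdx2 overlaps Junb on the other strand, and Gm6225 lies opposite Crem. Crem counts do not separate its long forms from the short repressor forms.

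Nuclei were placed in classes by their sums of marker UMIs (unique molecular identifiers, the deduplicated transcript counts). After quality filters there were 12771 WT and 11378 KO nuclei. The classes held 6034 WT and 2571 KO adipocyte nuclei, 341 and 1759 adipose stem and progenitor cell (ASPC) nuclei, 2478 and 1055 endothelial, 630 and 3654 immune, and 301 and 173 mural nuclei. The libraries shared 52 cell barcodes. Schwann (57 and 16 nuclei) and skeletal muscle nuclei (42 and 17) were too few for the comparisons, which cover the other 5 classes. Another 2888 WT and 2133 KO nuclei were left unassigned. Among unsupervised clusters, the largest endothelial ones were nearly separate by library, one holding 1629 nuclei of WT and 61 of KO, and the other 26 and 1130, so a class ratio also compares different clusters. Each class was led by its own markers, at 2.51 to 18.6 times the next list in WT and 4.61 to 15.3 times in KO. The rule that placed the nuclei asks for such a lead, so it is not a check of the classes. In every class other than adipocytes the next list was that of adipocytes, in both libraries. The median mitochondrial share of UMIs over these 5 classes was 0.855% to 1.42% in WT and 0.0356% to 0.0883% in KO. With mitochondrial genes left out of the totals, 56 member ratios stayed within counting error and 1 changed sign. What else this difference between the libraries stands for was not tested. Srsf1 itself stood at 180 CPM (UMIs per 1000000 UMIs) in WT and 61.1 in KO adipocyte nuclei, a log2 ratio of -1.56 (95% interval -1.64 to -1.47), and at -0.63 to -0.44 in the 4 other classes. Fewer nuclei of a type and fewer transcripts in each cannot be told apart in the whole libraries, but the class levels are scaled to the UMIs of that class.

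The levels of the NR4A receptors in adipocyte nuclei differed more between the libraries than those of any other member. Nr4a1 (NUR77) had 12226 UMIs in WT and 681 in KO adipocyte nuclei, 230.2 CPM (226 to 234) against 31.3 (29.0 to 33.7), a 7.35-fold lower level in KO. The log2 ratio was -2.88 (-2.99 to -2.77). Intervals are exact 95% Poisson intervals, cover counting error only and treat UMIs of 1 nucleus as independent. Nr4a2 (NURR1) had 6508 and 176 UMIs, 123 CPM against 8.09, 15.1-fold lower in KO with a log2 ratio of -3.92 (-4.15 to -3.70). Nr4a3 (NOR1) had 5149 and 65 UMIs, 96.9 CPM against 2.99, and its log2 ratio of -5.02 (-5.40 to -4.67) was a 32.4-fold lower level. Of the 16006 genes that reached 50 UMIs in adipocyte nuclei, 0.487% had a smaller ratio than Nr4a3, and 1.21% and 3.48% had a smaller one than Nr4a2 and Nr4a1. The WT and KO intervals were far apart for all 3 genes. Scrublet called 18.01% of the KO and 0 of the WT adipocyte nuclei doublets, and over 9 alternative ways to filter, class or scale the nuclei the Nr4a3 ratio lay between -5.92 and -4.92.

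Of the 5 classes in WT, Nr4a1 was highest in adipocyte nuclei, then in mural nuclei at 127 CPM, then endothelial nuclei at 90.1, ASPC at 65.1 and immune nuclei at 60.9, and only the last pair had overlapping intervals. Nr4a2 was also highest in adipocytes, and its endothelial (55.1 CPM), mural (40.5), immune (28.7) and ASPC (18.6) levels each overlapped the next. Nr4a3 stood apart because its mural level of 81.1 CPM overlapped that of adipocytes, while endothelial (26.0), immune (15.3) and ASPC (13.6) nuclei lay below. In the small WT classes, skeletal muscle nuclei had 264 CPM of Nr4a1 from 42 UMIs and Schwann nuclei had 125 CPM of Nr4a2 from 21 UMIs. In KO the orders changed. Nr4a1 was then 43.3 CPM in endothelial, 31.9 in mural, 18.4 in immune and 11.5 in ASPC nuclei, with the adipocyte level overlapping that of mural nuclei and below that of endothelial nuclei. Nr4a3 was lowest in KO adipocytes, and highest in KO mural nuclei at 68.8 CPM.

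**Figure D1:**
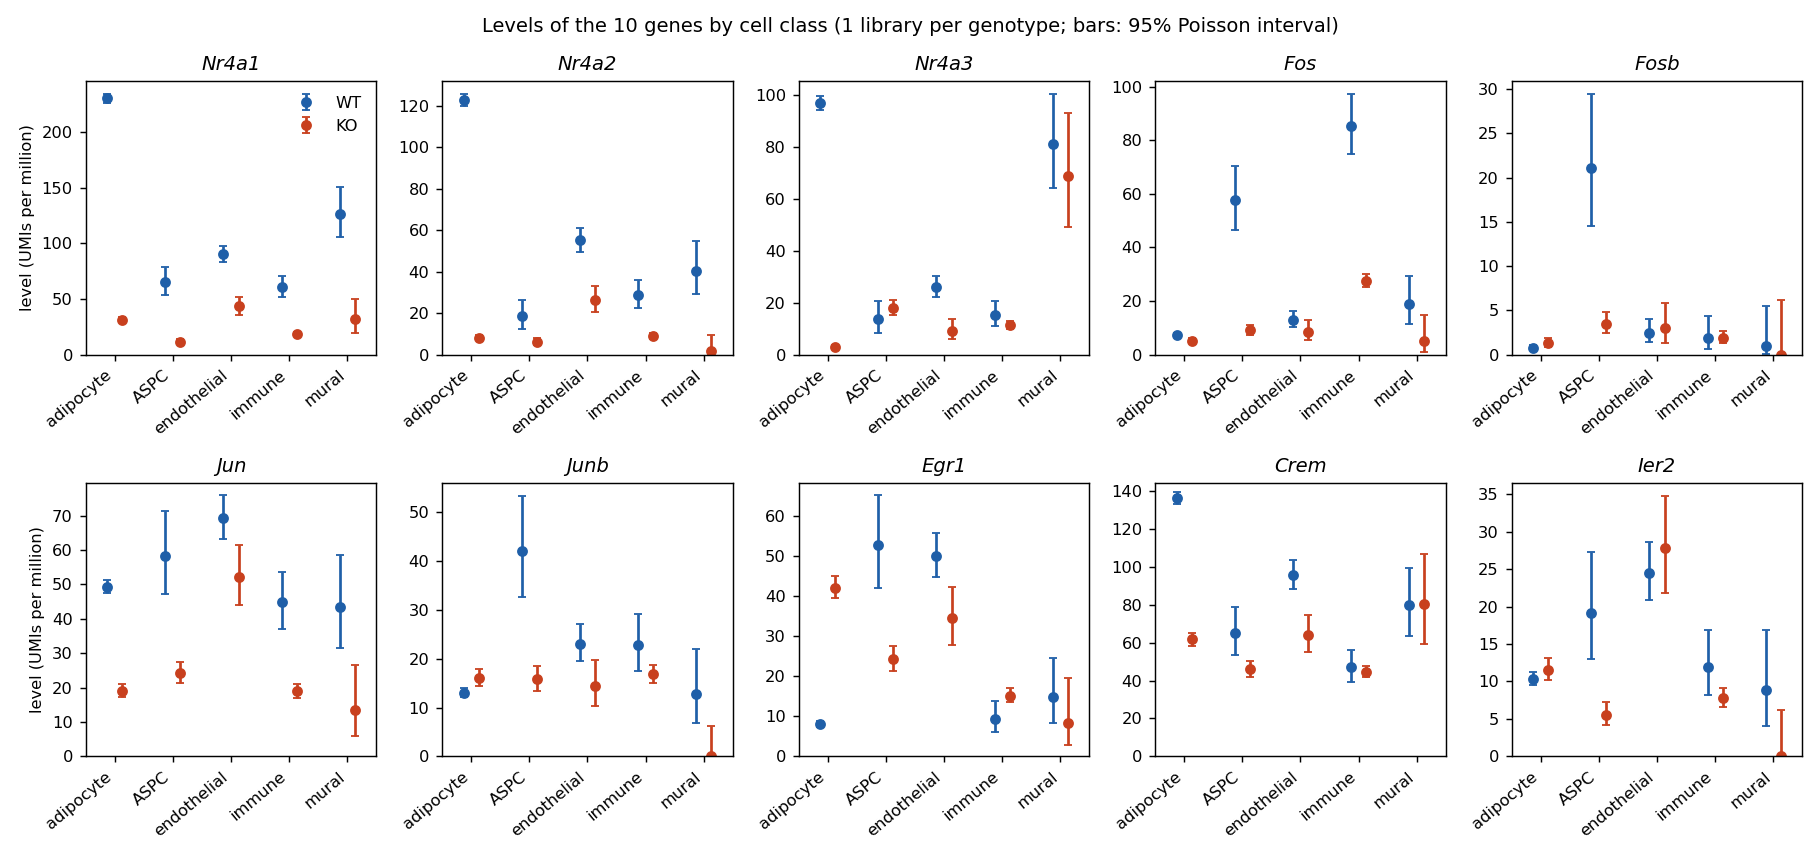
Level of each of the 10 genes in CPM (y axis, from 0) in the 5 cell classes (x axis) of the WT library (blue) and the KO library (red), with exact 95% Poisson intervals. Nr4a1 went from 230.2 in WT to 31.3 in KO adipocyte nuclei, whereas Egr1 went from 8.06 to 42.1 there.

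Outside adipocytes, Nr4a1 was also lower in KO, with log2 ratios of -2.50 (-2.90 to -2.10) in ASPC, -1.99 (-2.77 to -1.29) in mural, -1.72 (-1.99 to -1.45) in immune and -1.06 (-1.36 to -0.77) in endothelial nuclei. Nr4a2 was at -1.60 (-2.25 to -0.91) in ASPC, -1.70 (-2.10 to -1.29) in immune and -1.07 (-1.46 to -0.70) in endothelial nuclei, and went from 41 UMIs to 1 in mural nuclei, with a ratio of -4.59 (-9.93 to -2.04). Nr4a3 was lower in KO endothelial nuclei, at -1.49 (-2.16 to -0.88). Its ratios of 0.40 (-0.24 to 1.12) in ASPC, -0.42 (-0.91 to 0.09) in immune and -0.24 (-0.81 to 0.32) in mural nuclei had intervals that held 0. As counted, Nr4a1 and Nr4a2 were thus lower in KO in all 5 classes, and Nr4a3 in adipocyte and endothelial nuclei. With classes taken from unsupervised clusters, the ASPC ratio of Nr4a3 was -1.70 and that of Nr4a2 -3.79, and the Nr4a3 ratio was -1.44 in immune and -1.55 in mural nuclei. These clusters were more mixed in WT. In an ASPC cluster of 417 WT and 1079 KO nuclei, markers placed 40.8% and 80.5% in ASPC. Its WT nuclei had 135 CPM of Nr4a1, against 65.1 in WT ASPC nuclei classed by markers. In an immune cluster of 441 and 1819 nuclei the shares were 75.7% and 96.4%. Ratios by cluster thus compare unlike mixtures.

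Adipocyte transcripts were also found in nuclei of the other classes, and more so in WT. Of 9 adipocyte transcripts, among them Ucp1, Ppargc1a, Plin1 and Adipoq, the median level in WT was 21.1% of the adipocyte level in ASPC nuclei (range 14.4% to 38.0%), 29.8% for endothelial (18.5% to 61.9%), 18.7% for immune (14.8% to 41.6%) and 19.3% for mural nuclei (12.7% to 46.8%). In KO it was 7.62%, 11.1%, 7.63% and 5.03%, over 8 of them. Ucp1, the uncoupling protein of brown adipocytes, had log2 ratios of -7.37 to -5.27 in these 4 classes, where it is not made, and -4.85 in adipocytes. On the same scale, WT Nr4a1 was at 28.3% of its adipocyte level in ASPC nuclei, and at 39.1%, 26.4% and 55.0% in endothelial, immune and mural ones. Except for mural nuclei, each was within the range of the adipocyte transcripts of that class. WT Nr4a2 was within it in all 4 classes, at 15.2% to 45.0%, and WT Nr4a3 at 14.1% in ASPC was just under it, at 15.8% and 26.9% in immune and endothelial nuclei within it, and at 83.6% in mural nuclei above it.

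The ratios were also computed after the median share of the adipocyte level had been subtracted in each class and library. In endothelial nuclei the Nr4a1 ratio then went from -1.06 to 0.90 and that of Nr4a2 from -1.07 to 0.45. In immune nuclei Nr4a1 went from -1.72 to -0.16 and Nr4a2 from -1.70 to 0.48. For Nr4a1 the ratio was -0.86 in ASPC and -1.44 in mural nuclei. These ratios have no interval and depend on the share that is subtracted. WT Nr4a1 in ASPC nuclei was at 28.3% of its adipocyte level, and the upper end of the range there, 38.0%, would leave nothing of it. For Nr4a2 in ASPC, and for Nr4a3 in ASPC, endothelial and immune nuclei, nothing was left of the WT level, so no ratio could be given. In KO, 5.53 CPM of Nr4a2 were left in ASPC, and 17.8, 8.92 and 11.2 CPM of Nr4a3 in ASPC, endothelial and immune nuclei. What remained of Nr4a3 in mural nuclei was 62.3 CPM in WT and 68.6 in KO.

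**Figure D2:**
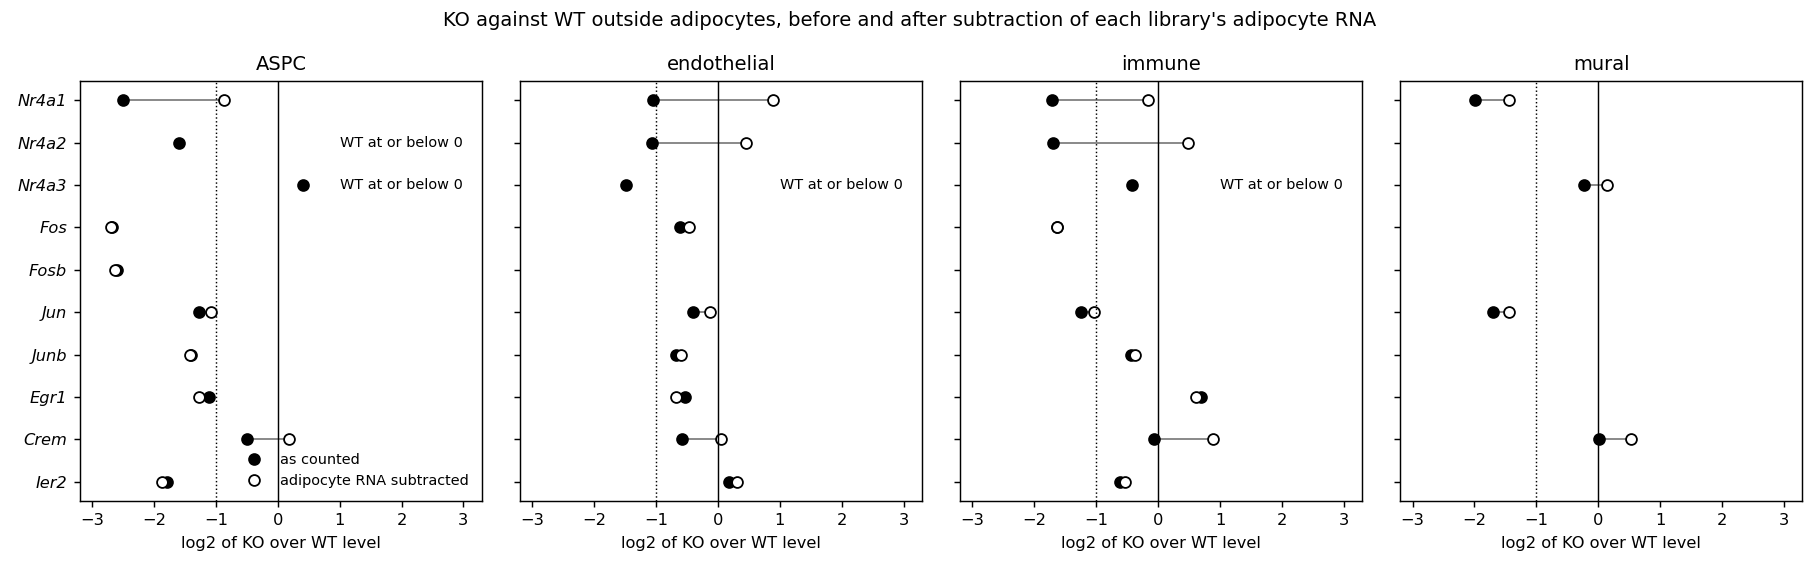
log2 of the KO over the WT level (x axis) for the members with at least 50 UMIs (y axis) in ASPC, endothelial, immune and mural nuclei, as counted (filled points) and after subtraction of adipocyte RNA (open points), with the dotted line at a 2-fold lower level. Nr4a1, Nr4a2 and Crem moved to the right, by 1.95 for Nr4a1 in endothelial nuclei, while Fos and Junb moved by at most 0.16.

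The Nr4a3 UMIs of KO immune, ASPC and adipocyte nuclei were held by few nuclei. In KO immune nuclei, 70 of 3654 had any of the 219 UMIs, 1 nucleus held 54 of them and the top 5 held 49.3%. In KO ASPC nuclei, 75 of 1759 held 176 UMIs, 34.1% of them in 5 nuclei. In KO adipocytes, 37 of 2571 nuclei held 65 UMIs, 33.8% of them in 5 nuclei. In KO mural nuclei, 30 of 173 held Nr4a3, with at most 3 UMIs in 1 nucleus and 29.3% of the UMIs in 5 nuclei. In WT adipocytes, 1682 of 6034 nuclei held Nr4a3 and the top 5 had 2.33% of its UMIs. The top 5 share depends on how many nuclei hold a UMI. It was 19.5% to 36.4% in the other WT classes and 32.0% in KO endothelial nuclei, so such shares are not particular to the KO classes named first. Of all KO Nr4a3 UMIs, 9.22% were in adipocyte nuclei, against 80.3% in WT.

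Crem was the remaining member with its highest WT level in adipocytes, at 136 CPM. It was 61.7 CPM in KO adipocytes, a log2 ratio of -1.14 (-1.23 to -1.06), from 7231 and 1343 UMIs. In the other classes its ratios were smaller, at -0.58 (-0.83 to -0.34) in endothelial, -0.51 (-0.82 to -0.18) in ASPC, -0.07 (-0.34 to 0.21) in immune and 0.01 (-0.54 to 0.54) in mural nuclei. After the subtraction they were 0.05, 0.18, 0.89 and 0.53. As counted, its level was at least 2-fold lower in adipocytes and not in the other 4 classes, but with classes from clusters the ASPC ratio was -1.08.

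Fos, Fosb, Jun and Junb, the AP-1 subunits, were all at least 2-fold lower in KO ASPC nuclei as counted, and differed in direction in adipocytes. Fos was low in adipocyte nuclei of both libraries, at 7.25 and 5.15 CPM, with a ratio of -0.49 (-0.81 to -0.19). That ratio ran from -0.60 to -0.07 over 9 alternatives. In the adipocyte clusters with at least 100 nuclei of a library, Fos was at 2.13, 4.77 and 10.2 CPM in WT and 5.06 in KO. Its highest WT levels were in immune nuclei, 85.5 CPM, and ASPC nuclei, 57.6 CPM. There it was 27.5 and 9.02 CPM in KO, with ratios of -1.64 (-1.86 to -1.41) and -2.68 (-3.11 to -2.24). After the subtraction they were -1.63 and -2.70, and with classes from clusters -1.28 and -1.38. In endothelial nuclei the ratio was -0.62 (-1.35 to 0.06), with an interval that held 0. Few nuclei held most of the WT ASPC UMIs, with 53.8% of the 93 in 5 of 341 nuclei, so the shares of nuclei are given as well. The share of ASPC nuclei with a Fos UMI was 9.68% in WT and 3.297% in KO, and that of immune nuclei was 20.6% in WT and 9.96% in KO. In mural nuclei Fos had 19 and 3 UMIs.

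Fosb had few UMIs. It was at 21.1 CPM in WT ASPC nuclei and 3.49 in KO, a ratio of -2.60 (-3.32 to -1.87) from 34 UMIs in each library, of which 5 WT nuclei held 73.5%. With classes from clusters it was -1.19. In adipocytes it had 42 and 29 UMIs, 0.791 and 1.33 CPM, a ratio of 0.75 (0.02 to 1.47) that was 2.33 with classes from unsupervised clusters. It was under 50 UMIs in the other 3 classes, with 16 and 8 in endothelial, 5 and 37 in immune, and 1 and 0 in mural nuclei.

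Jun was the member with the flattest WT profile, between 43.5 CPM in mural and 69.3 in endothelial nuclei, and adjacent classes in that order overlapped. As counted it was lower in all 5 classes of KO, although the mural ratio was 0.10 with classes from clusters, by ratios of -1.37 (-1.52 to -1.22) in adipocyte, -1.27 (-1.62 to -0.91) in ASPC, -1.24 (-1.55 to -0.93) in immune, -1.70 (-2.99 to -0.59) in mural and -0.41 (-0.69 to -0.13) in endothelial nuclei. The adipocyte, ASPC, immune and mural intervals overlapped each other, and the endothelial one lay above the first 3. After the subtraction the 4 classes outside adipocytes were at -1.07, -1.03, -1.45 and -0.12, in the same order with endothelial last.

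Junb was 13.1 CPM in WT and 16.1 in KO adipocytes, a ratio of 0.30 (0.11 to 0.49). It was lower in KO ASPC nuclei, at -1.41 (-1.83 to -0.97) from 42.1 and 15.9 CPM, a ratio of -0.53 with classes from clusters, and in endothelial nuclei at -0.68 (-1.23 to -0.16). The immune ratio was -0.43 (-0.83 to -0.01). In mural nuclei 13 UMIs were set against 0, which is at least 2.55-fold lower when 3 counts are allowed in KO. Adipocytes thus lay on one side of 0 and ASPC, endothelial and immune nuclei on the other.

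Egr1 went the other way in adipocytes. It had 428 UMIs in WT and 915 in KO adipocyte nuclei, 8.06 and 42.1 CPM, a 5.22-fold higher level in KO with a log2 ratio of 2.38 (2.22 to 2.55). That was higher than the ratio of 95.05% of genes tested there. The share of adipocyte nuclei with an Egr1 UMI was 4.54% in WT and 17.97% in KO. In WT, adipocytes were level with immune nuclei (9.33 CPM) at the low end, and ASPC (52.7 CPM) and endothelial nuclei (50.1) were the highest. In KO, adipocytes were level with endothelial nuclei (34.4 CPM), above ASPC (24.3), immune (15.2) and mural nuclei (8.39). Its ratio was -1.12 (-1.48 to -0.74) in ASPC, -0.54 (-0.89 to -0.20) in endothelial nuclei, and 0.70 (0.11 to 1.35) in those of the immune class. With classes from clusters the ASPC and endothelial ratios were -0.37 and -0.067. Mural nuclei had 15 and 5 UMIs, a ratio of -0.82 (-2.64 to 0.71).

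Ier2, a nuclear protein of the immediate early response, did not differ beyond counting error in adipocytes, at 10.4 and 11.6 CPM and 0.16 (-0.06 to 0.37), or in endothelial nuclei at 0.18 (-0.24 to 0.59). It was lower in KO ASPC nuclei, from 19.2 to 5.54 CPM with a ratio of -1.79 (-2.46 to -1.11) that was -0.88 with classes from clusters, and in immune nuclei at -0.61 (-1.17 to -0.01). In mural nuclei 9 UMIs were set against 0, at least 1.77-fold lower.

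**Figure D3:**
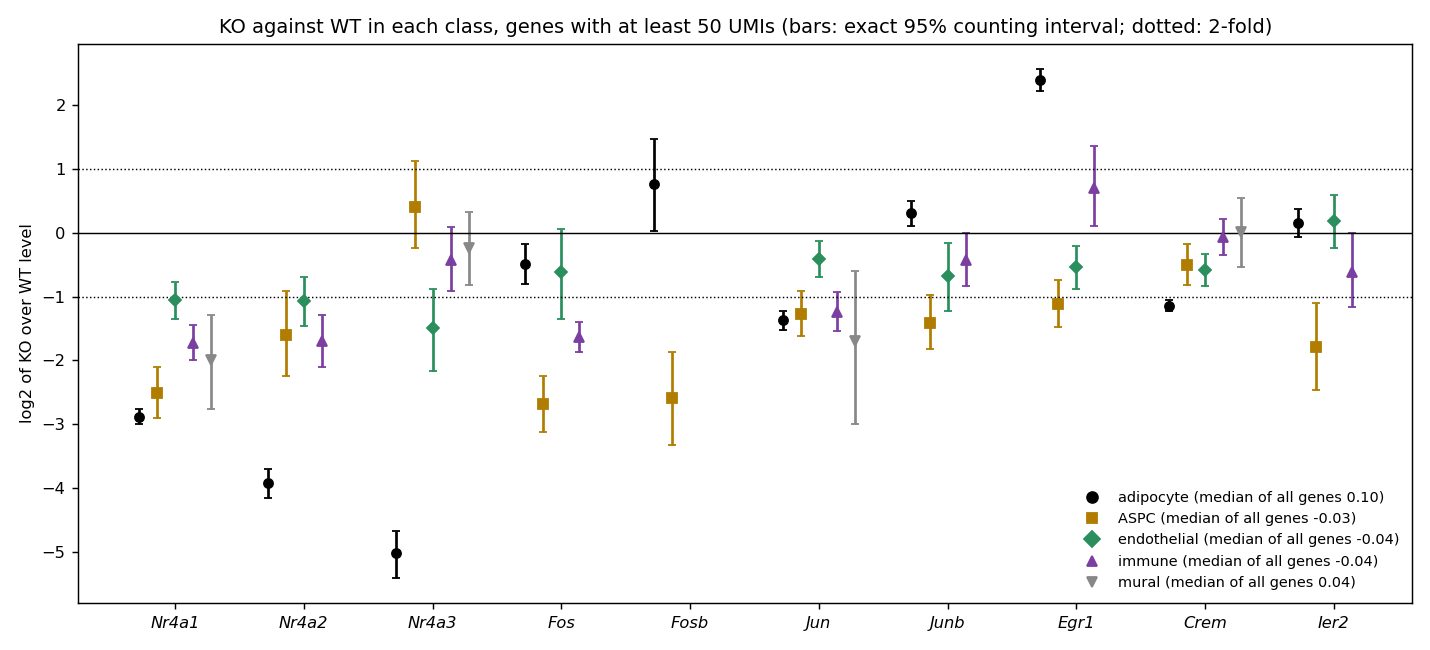
log2 of the KO over the WT level (y axis) of each member (x axis) in each class with at least 50 UMIs, with exact 95% intervals for counting error and dotted lines at a 2-fold difference. The 3 Nr4a genes lie between -5.02 and -2.88 in adipocytes (black circles), Egr1 at 2.38, and 8 of 10 ASPC points (squares) lie below -1.

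By count, 5 of 10 members (Nr4a1, Nr4a2, Nr4a3, Jun and Crem) were at least 2-fold lower in KO adipocyte nuclei, as were 17.1% of all genes tested, and 1 (Egr1) was at least 2-fold higher, as were 20.2% of all genes. The members' median log2 ratio was -0.82 and that of all genes 0.10. In ASPC nuclei 8 of 10 members were at least 2-fold lower, against 11.1% of all genes, with a median of -1.50 against -0.03. Nr4a3 and Crem were the other two. The ASPC cluster of 417 WT nuclei was mostly not ASPC by markers, as given above. With classes from clusters the count was 7 of 10, against 15.5% of all genes, and its members differed, since Nr4a3 and Crem entered and Junb, Egr1 and Ier2 left. In endothelial nuclei it was 3 of 9, the Nr4a genes, against 13.2% (median -0.62 against -0.04). In immune nuclei 4 of 9 (Nr4a1, Nr4a2, Fos and Jun) stood against 12.0% (median -0.61 against -0.04), and in mural nuclei 2 of 4 (Nr4a1 and Jun) against 10.4% (median -0.97 against 0.04). After the subtraction the counts were 6 of 8 for ASPC (7.49% of all genes), 0 of 8 for endothelial (7.65%), 2 of 8 for immune (9.23%) and 2 of 4 for mural nuclei (6.64%), where the medians of all genes were then 0.19, 0.31, 0.15 and 0.30. As counted, lower levels in KO were thus found in all 5 classes, and the genes that made up the count differed by class.

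Over all nuclei, 5 of 10 members were at least 2-fold lower, against 18.1% of all genes, the median of all genes was 0.12, and these whole-library ratios mixed levels with the makeup of the library. Fos was at 13.2 CPM in WT and 13.8 in KO, a ratio of 0.06 (-0.06 to 0.19). As counted it was nevertheless lower in KO ASPC and immune nuclei and, by less, in adipocyte nuclei. With the WT level of each class held and the class makeup of the KO library applied, Fos would have stood at a ratio of 1.49, and with the WT class shares held and the KO levels applied, at -0.78. Junb was likewise near 0 over all nuclei, at 0.05, with 0.43 and 0.02 by these 2 sums. For the Nr4a genes the all-nuclei ratios of -2.94, -3.50 and -3.07 came with -0.48, -0.54 and -0.59 when only the class shares changed and -2.64, -3.34 and -3.74 when only the levels did. Egr1 was at 1.15 over all nuclei, with 0.37 and 1.481.

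Shares of nuclei with a UMI were compared at equal depth. With every nucleus thinned to 1000 UMIs, which left out 498 WT and 117 KO adipocyte nuclei, Nr4a1 had a UMI in 20.6% of the WT adipocyte nuclei (95% binomial interval 19.5 to 21.7) and 2.93% of the KO ones (2.303 to 3.68). The unthinned shares were 61.0% and 17.3%, at median depths of 6707.5 and 6347 UMIs. Nr4a2 was found in 11.1% and 0.978% of thinned nuclei, Nr4a3 in 8.24% and 0.163%, and Crem in 12.0% and 5.46%. Egr1 was in 0.578% and 4.48%, Jun in 4.43% and 2.36%, and Fos in 0.596% and 0.611%. At least 1 of the 3 Nr4a genes was present in 33.0% of WT adipocyte nuclei and 4.03% of those of KO. The range was 9.66% to 20% of WT and 2.68% to 12.7% of KO nuclei in the other 4 classes. As a gauge of free RNA, Ucp1 was in 34.3% to 50.4% of thinned WT nuclei of those 4 classes, against 78.6% of WT adipocytes, and in 0.606% to 1.13% of KO nuclei there. Shares of Nr4a and Crem outside WT adipocytes cannot be read as expression from these counts alone.

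**Figure D4:**
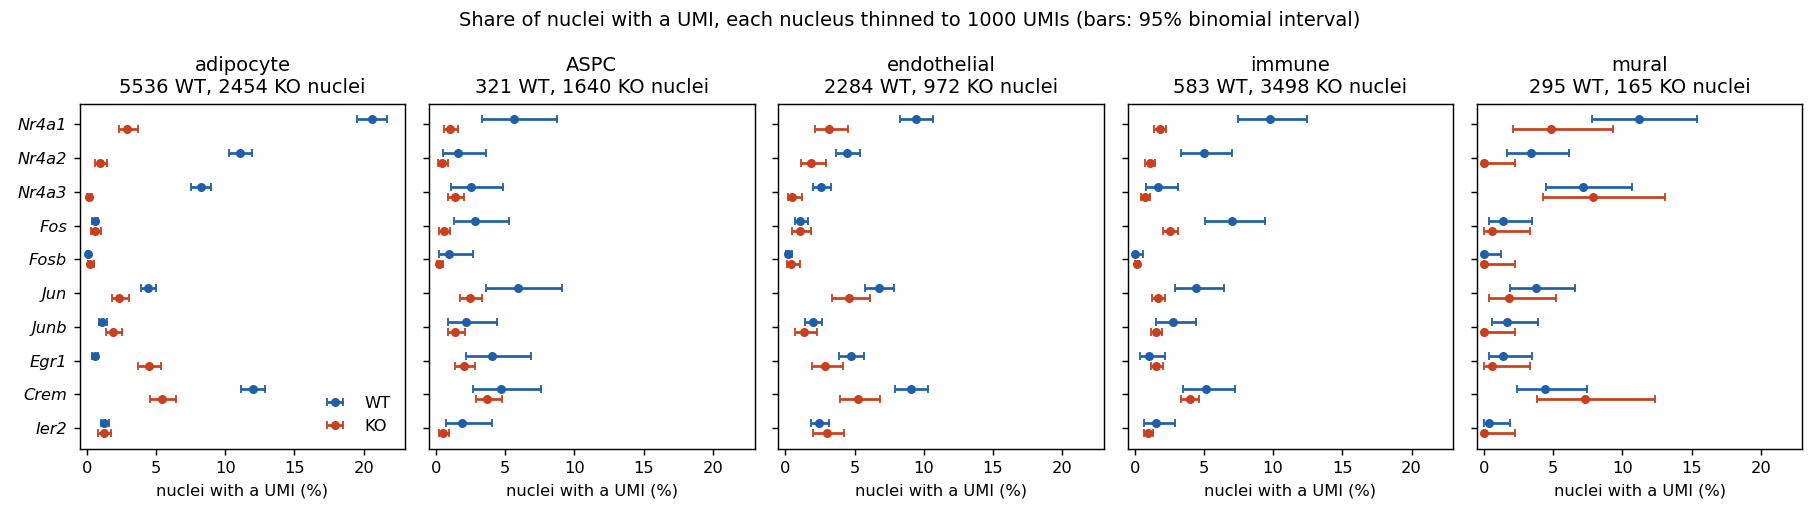
Share of nuclei with at least 1 UMI of each gene (x axis, percent) after every nucleus was thinned to 1000 UMIs, in 5 classes, WT in blue and KO in red, with exact 95% binomial intervals. The Nr4a1 share in adipocyte nuclei was 20.6% in WT and 2.93% in KO, and the Egr1 share was 4.48% in KO against 0.578% in WT.

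Within the WT adipocyte nuclei the Nr4a genes varied with the thermogenic transcripts. Nuclei of each library were split into 3 groups of equal size by the share of their UMIs from Ucp1, Cidea, Ppargc1a, Dio2 and Adrb3, none of them a member. From the low to the middle and the high group, WT Nr4a3 went from 29.5 to 66.6 and 186.5 CPM, Nr4a2 from 67.0 to 102 and 191 CPM, and Nr4a1 from 145 to 201 and 332 CPM. Jun went from 31.3 to 45.4 and 68.3 CPM. Crem, at 129, 139 and 138 CPM, was nearly flat, and Egr1 went down from 12.6 to 7.52 and 5.05 CPM. The groups are a range and not types: 14.3% of WT nuclei lay within 10% of the lower bound and 12.1% within 10% of the upper one. With groups by UMIs per nucleus instead, WT Nr4a3 stood at 96.9, 112 and 91.2 CPM.

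In KO adipocytes the same split gave a smaller span. Nr4a1 was 25.1, 29.9 and 39.5 CPM, Nr4a2 was 7.36, 6.81 and 10.6 CPM and Nr4a3 was 1.07, 4.54 and 2.80 CPM in the low, middle and high groups. The split was also coarser in KO. Of 2571 KO nuclei, 533 had no thermogenic UMI, and the low group of 857 nuclei held 502 in all. The span in KO can therefore not be set against that in WT as a lost gradient. The KO high group had 1687 CPM of the thermogenic transcripts and the WT low group 3959 CPM, so the pooled levels of the 2 libraries did not meet. Single nuclei overlapped, since 7 nuclei of the WT low group had none of these UMIs. In that WT low group, the 3 Nr4a levels were still above those of every KO group. Egr1 was 34.0, 43.6 and 48.1 CPM over the KO groups.

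**Figure D5:**
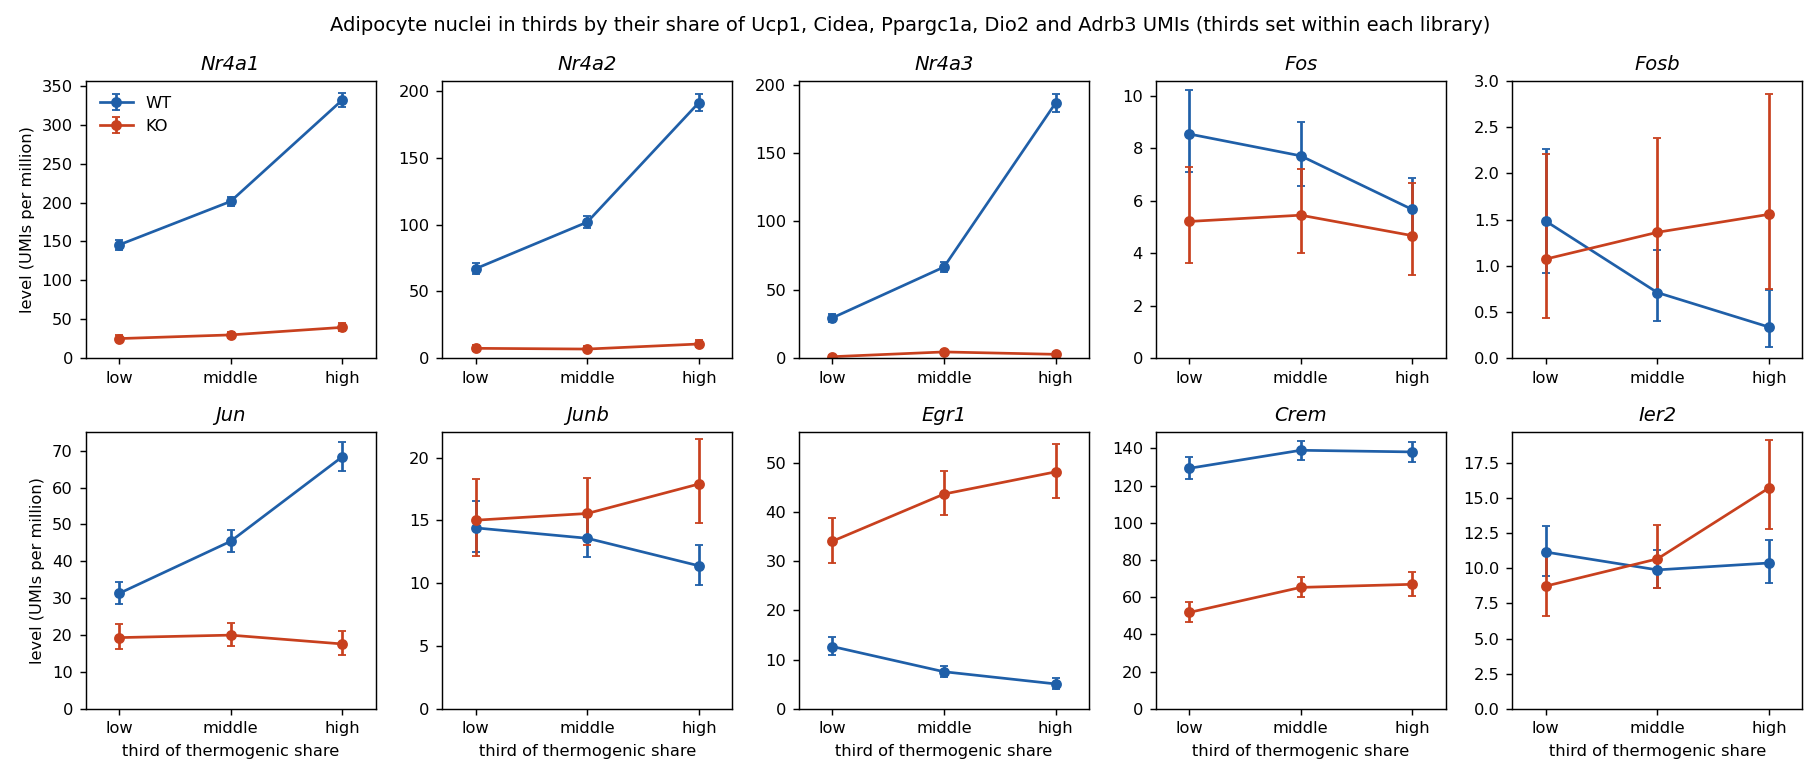
Level in CPM (y axis, from 0) of each member in adipocyte nuclei split into 3 groups of equal size by their share of thermogenic UMIs (x axis), WT in blue and KO in red, with 95% Poisson intervals. WT Nr4a3 went from 29.5 to 186.5 across the groups, and the KO levels stayed at or below 4.54.

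Unsupervised clusters, made without the members among the variable genes, gave 3 adipocyte clusters of WT nuclei and 1 of KO nuclei with at least 100 nuclei of a library. Of the WT clusters, the one of 239 nuclei had the highest Slc7a10 (512 CPM) and Lep (99.7 CPM), transcripts known from white adipocytes, and the lowest Nr4a levels, at 116 CPM for Nr4a1, 58.8 for Nr4a2 and 37.1 for Nr4a3. The main WT cluster of 3664 nuclei had 262, 140 and 112 CPM, and that of 896 nuclei, which also held 476 CPM of the endothelial receptor Flt1, had 188, 107 and 76.5 CPM. The KO cluster of 2487 nuclei had 36.2, 8.60 and 1.64 CPM. Every WT cluster was above the KO one for the 3 Nr4a genes, and below it for Egr1, at 7.67, 3.35 and 14.5 against 44.5 CPM.

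Nr4a transcripts were found together in WT adipocyte nuclei. With 4581 nuclei thinned to 3000 UMIs, Nr4a2 and Nr4a3 were both present in 329, where 217 were expected from their separate shares, a ratio of 1.52. Nr4a1 and Nr4a3 were at 1.37, and Nr4a1 and Nr4a2 at 1.23. Jun with the 3 Nr4a genes was at 1.14 to 1.24. Crem with them was at 1.00 to 1.03, and Egr1 with them at 0.931 to 0.992, close to what separate shares give. Fos and Egr1, with 67 nuclei each, shared 4 where 0.98 were expected. These are descriptions within 1 library, whose nuclei share their source.

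Among 36 other immediate early genes tested in adipocytes, 5 were at least 2-fold lower and 8 at least 2-fold higher, to be read beside 17.1% and 20.2% of all genes, and their median ratio was 0.18. The smallest ratios were those of Sik1, a cAMP-induced kinase, at -2.06 (109 to 26.0 CPM), Gadd45g at -1.73 (163 to 49.3), Ier3 at -1.54 (14.7 to 5.06) and Trib1 at -1.04 (72.9 to 35.4). The largest were those of Fosl1, an AP-1 subunit, at 3.69 (0.490 to 6.30 CPM), Gadd45b at 3.46 (0.866 to 9.56), Ier5 at 2.10 (1.36 to 5.79) and Ppp1r15a, a stress-induced phosphatase subunit, at 1.81 (6.36 to 22.4). Jund, Mafk, Klf6 and Myc were at 1.36, 1.21, 1.12 and 1.11. One KO nucleus held 43 of the 208 Gadd45b UMIs. In ASPC nuclei 9 of 28 of these genes were at least 2-fold lower, beside 11.1% of all genes, and the median was -0.55. For endothelial, immune and mural nuclei it was 3 of 32, 3 of 34 and 2 of 12, beside 13.2%, 12.0% and 10.4%.

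Of the 2 lists, 4 of 34 other immediate early genes and 2 of 33 genes of the cAMP pathway were at least 2-fold higher in KO immune nuclei, as were 5.35% of all genes tested there. Npas4, an activity-induced factor, went from 1 UMI to 255, spread over 201 nuclei, with a ratio of 5.15. Egr3 went from 1 to 106 UMIs (3.89), 50.9% of them in 5 nuclei. Egr2 was at 1.05 and Atf3 at 1.16, with Pde4b at 1.14 and Adcy2 at 1.38 from the cAMP list. In endothelial nuclei, where 3.2% of all genes were at least 2-fold higher, Egr3 was at 1.52, from 26 and 31 UMIs.

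Of 33 genes of the cAMP pathway in adipocytes, 10 were at least 2-fold lower and 3 at least 2-fold higher, beside 17.1% and 20.2% of all genes, with a median of -0.33 against 0.10. Among the smallest ratios were those of the stimulatory G protein gene Gnas, at -2.96 (2031 to 261 CPM), the adenylyl cyclase Adcy3, at -2.48 (497 to 89.2), and the kinase Sik3, at -1.46 (902 to 328). Adrb3, the main receptor of brown adipocytes, was at -1.41 (317 to 119). The largest were those of the cyclase Adcy5, at 2.38 (21.9 to 114 CPM), the anchoring protein Akap12, at 2.18 (11.6 to 52.7), the coactivator Crtc1, at 1.03 (15.5 to 31.6), and the cyclase Adcy2, at 0.86 (5.29 to 9.61). Creb1 itself was at 0.28 (136 to 165 CPM).

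Over the 10 class levels (5 classes in 2 libraries), the genes whose log2 profile was most like that of the summed Nr4a level were Pttg1 (Pearson's r 0.961), Irgq (0.958), Hsd17b10 (0.9504), Hsp90aa1 (0.949) and Gmpr (0.949), among 15144 genes. Those most like the sum of Fos, Fosb, Jun, Junb, Egr1 and Ier2 were Kars (0.978), Pdcd5 (0.974), Rpl13 (0.971), Rplp0 (0.969) and Ost4 (0.966). The 10 points share 2 libraries and the free RNA of each. Between members, Junb and Ier2 (0.886), Nr4a2 and Jun (0.853) and Nr4a1 and Nr4a2 (0.838) were the most alike, and Nr4a3 and Egr1 (-0.623) the least.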

How the data were processed

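Nuclei of interscapular BAT from 1 WT and 1 KO library (8 weeks of age) were read from the deposited matrices of UMI counts per gene and barcode. The authors made these counts with Cell Ranger 5.0.0, per the file headers and the submitters' processing notes, which also name mm10 and Seurat 3.1.1. The deposited counts held 12846 WT and 11495 KO barcodes with 93102814 and 80090208 UMIs. How introns were counted is not given in the sources used here. The study's methods name another Cell Ranger version than the headers.

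Barcodes with fewer than 200 genes, over 10% mitochondrial UMIs, or more than 3 median absolute deviations from the library's median were dropped. Doublets were not removed, since Scrublet (Scanpy 1.11.5) called 0 in WT and 21.3% in KO and so had not worked in WT. A nucleus took the class whose marker list led with at least 20 UMIs per 10000, 3 marker UMIs and 2 times the next list. The adipocyte sum had first been reduced by its median in nuclei led by other lists, 37.9 per 10000 in WT and 8.87 in KO. This scoring was set after the marker sums, but not the members' values, had been seen.

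Counts were summed per class and library and scaled to 1000000 UMIs (CPM). Genes with at least 50 UMIs over both libraries of a class were counted against a 2-fold threshold. With 1 library per genotype no p-value was computed. Intervals are exact (Poisson, conditional binomial for ratios, Clopper-Pearson for shares) at 95%. Scripts (Python 3.11.15, NumPy 2.4.6, SciPy 1.17.1) were tested on simulated data. The named genes were the 10 members, Srsf1 and markers, the 4 smallest and 4 largest adipocyte ratios of each of 2 lists (other immediate early genes, and the cAMP pathway), genes of these lists at least 2-fold higher in a class, and the 5 genes most alike in profile to each of 2 sums of members. One gene that this rule names is not reported here. Adrb3, Creb1, and Slc7a10, Lep and Flt1 in the adipocyte clusters were named after their values were seen. The members and the lists were chosen with earlier results of these data known. Alternatives were other filters, doublet removal, Leiden clusters (resolution 0.5), a stricter margin (4 times), mean CPM over nuclei, other totals and centring, subtraction of adipocyte RNA, other thresholds and, added after the data were seen, nuclei with at least 2000 UMIs.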

Additional observations from a re-analysis of the deposited data

Results flagged for a closer look

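For 3 members the KO and WT levels stood in opposite order in adipocytes and in another class, with both intervals away from 0. The difference between classes was not tested, since each class had 1 library per genotype. These intervals treat UMIs of 1 nucleus as independent, and some ended close to 0. Fosb had a log2 ratio of -2.60 in ASPC nuclei, where 5 WT nuclei held 73.5% of 34 UMIs. Its ratio was 0.75 in adipocytes, with an interval from 0.02. Junb was at -1.41 in ASPC, -0.68 in endothelial and -0.43 in immune nuclei (interval to -0.01), and at 0.30 in adipocytes. Egr1 was at -1.12 in ASPC and -0.54 in endothelial nuclei (-0.067 with classes from clusters), and at 2.38 in adipocytes. With classes from clusters the ASPC values were -1.19 for Fosb, -0.53 for Junb and -0.37 for Egr1. Those values compare unlike mixtures, since markers placed 40.8% of 417 WT but 80.5% of 1079 KO nuclei of an ASPC cluster in ASPC.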

How the results depend on the processing

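No paired analysis was possible because each genotype had 1 library and no result came from a test. Of the recomputed member levels, 464 log2 ratios stayed within their counting interval, 54 moved beyond it in the same direction and 28 changed sign. None of the adipocyte level ratios changed sign. The cause of these changes was not tested. With adipocyte RNA subtracted, sign changes were Nr4a1 (0.90), Nr4a2 (0.45) and Crem (0.0516) in endothelial, Nr4a2 (0.48) and Crem (0.89) in immune, Crem (0.18) in ASPC and Nr4a3 (0.14) in mural nuclei, and the counts of members at least 2-fold lower were 0 in endothelial and 2 in immune nuclei. With classes from clusters they were Nr4a3 in ASPC (-1.70), Fosb in immune (-0.64), and Jun (0.10), Egr1 (1.09) and Crem (-0.77) in mural nuclei. The count in mural nuclei was then 4, beside 14.4% of all genes, and the immune median was -1.23. Crem in mural nuclei, at 0.01, was also -0.00077 with 500 to 5000 genes, -0.0750 with the stricter margin, -0.26 as a mean over nuclei, -0.0068 without mitochondrial genes and -0.0323 after centring. Fosb in immune nuclei, at 0.05, was -0.0502 without the top Scrublet scores, -0.29 with the stricter margin, -0.0352 as a mean over nuclei and -0.0356 in nuclei of at least 2000 UMIs. In those deeper nuclei Ier2 was -0.0418 in endothelial and Crem 0.0120 in immune nuclei. Nr4a3 was 0.10 in immune nuclei with the stricter margin. Over all nuclei Fos and Junb were -0.10 and -0.0902 as means over nuclei and -0.0596 and -0.0707 after centring. Thinned, the log2 ratio of shares was 0.0362 for Fos in adipocytes, -0.37 for Crem in immune and 0.15 for Nr4a3 in mural nuclei.

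The adipocyte median of -0.82 was -1.16 with 500 to 5000 genes and -1.14 with at least 200 UMIs, which leave out Fosb. Endothelial counts were 1 with the stricter margin and 1 in nuclei of at least 2000 UMIs. In mural nuclei the count was 1 and the median -0.27 without the top Scrublet scores, 1 and -0.28 with the stricter margin, and 1 and -0.34 in the deeper nuclei. The ASPC count was 4 at 200 UMIs, where 5 members remained, and no mural member had that many. At 4-fold the counts were 3 in adipocytes, 3 in ASPC, 3 over all nuclei and 0 in endothelial, immune and mural nuclei. At 1.5-fold the count was 5 in endothelial nuclei. Shares of all genes are not given beside the counts of this paragraph, so these counts have no background to be read against. Depth limits Fosb in all 5 classes, and the 6 members under 50 UMIs in mural nuclei.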

Other observations

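In unassigned nuclei, which enter no class, Nr4a1 stood at 165 CPM in WT and 30.9 in KO, Nr4a2 at 86.9 and 9.85, Nr4a3 at 66.2 and 9.38, and Egr1 at 15.2 and 36.5. A cluster of 3335 WT nuclei with a median of 1019 UMIs had 192 CPM of Nr4a1, and a KO cluster of 362 nuclei with a median of 757 UMIs had the highest Egr1 level of any cluster with at least 100 nuclei of a library, at 114 CPM. Of the KO nuclei in endothelial clusters, a cluster of 102 nuclei had 125 CPM of Nr4a1, against 20.8 CPM in the cluster of 1130.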
